A study of Mus musculus with 6 samples.

Results

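The genes described here encode the catalytic core of telomerase (Tert), its dyskerin subunit (Dkc1), the proteins of the shelterin complex (Terf1, Terf2, Terf2ip, Tinf2, Acd, Pot1a and Pot1b) and the telomere helicase Rtel1. They were taken by gene symbol from the expression table of the series, which lists 28584 symbols. All 10 were found, and all 10 were among the 18556 genes tested, a set defined by reaching 1 TPM in any 2 libraries. A TPM (transcripts-per-million) value scales reads by exon length and library, so levels of different genes within a library can be compared.

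The libraries came from 1 line of mouse embryonic stem cells (mESCs) derived from C57BL/6 × 129S6 blastocysts. All cells were first grown on mitomycin C-inactivated mouse embryonic fibroblast (MEF) feeders and then kept for 10 passages in serum-containing basic medium under 1 of 3 conditions. LIF-ESCs received 1000 U/mL of leukemia inhibitory factor (LIF), OSM-ESCs received 10 ng/mL of oncostatin M (OSM), a cytokine of the same family, and -LIF-ESCs received neither cytokine and served as the control. Poly-A RNA of 2 replicates per condition was sequenced, 6 libraries in all, and the question was how telomere maintenance genes compare between cells held in OSM, in LIF and without either.

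Telomerase adds telomeric DNA repeats to chromosome ends with the reverse transcriptase Tert and the RNA template Terc, and Dkc1 binds and stabilizes that RNA. Shelterin coats the repeats: Terf1 and Terf2 bind the double-stranded part, Terf2ip (Rap1) sits on Terf2, Tinf2 bridges Terf1 and Terf2, and Acd (TPP1) tethers the Pot1 proteins that hold the single strand and also brings telomerase to the end. Mouse cells carry a pair of Pot1 genes, Pot1a and Pot1b, where human cells carry a single one, and cultured mESCs are known for telomerase activity and long telomeres.

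The libraries held between 20712941 and 28994417 reads, recovered from TPM and exon length. Summed TPM of the 8 pluripotency markers examined lay at 1900 to 1910 in the control, at 3470 to 3580 with LIF and at 3230 to 3270 with OSM, so the stem cell label held in the cytokine groups, with lower but present markers in the control. In -LIF-ESCs the 4 simple-epithelium keratins summed to 2310 to 2330 TPM, against 33.0 to 34.9 with LIF and 43.5 to 48.0 with OSM. The 5 mesendoderm markers summed to 146 to 150 TPM in the control against 3.37 to 4.86 and 3.85 to 4.07, and the 5 neural markers to 59.7 to 61.8, 67.0 to 70.0 and 73.8 to 76.4. The 14 fibroblast markers, which feeder cells would also carry, summed to 125 to 134, 520 to 525 and 726 to 732 TPM, with Fap listed at 0 in both -LIF-ESC libraries and no marker at 0 in the other groups. At the listed scaling these sums differed between the control and the cytokine groups for every list. The neural gap was narrow, at 61.8 against 67.0 TPM, and the sums were not recomputed on another scaling. Of 13 fibroblast markers tested, 11 were higher and 2 lower with each cytokine than in the control, and of 4 neural markers 3 and 1. The mesendoderm sums of the cytokine groups overlapped, and none of the 5 mesendoderm and 4 keratin genes passed between them. The part of these markers in the results was not tested. In bulk libraries fewer cells of a type and less RNA per cell cannot be told apart.

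Promoters of 4 of the genes are shown because they belong to the member with the largest rise (Rtel1), to the Pot1 pair of paralogues and to Tert. Each is the 250 bases before the RefSeq transcript start on GRCm38.p6, read 5′ to 3′ on the strand of the gene. The windows lie at chr2:181319474-181319723 on the plus strand for Rtel1, chr6:25809219-25809468 on the minus strand for Pot1a, chr17:55712637-55712886 on the minus strand for Pot1b and chr13:73626661-73626910 on the plus strand for Tert. Capitals mark matches, on either strand, to the GC box GGGCGG, the CCAAT box CCAAT or the telomere repeat TTAGGG.
Rtel1: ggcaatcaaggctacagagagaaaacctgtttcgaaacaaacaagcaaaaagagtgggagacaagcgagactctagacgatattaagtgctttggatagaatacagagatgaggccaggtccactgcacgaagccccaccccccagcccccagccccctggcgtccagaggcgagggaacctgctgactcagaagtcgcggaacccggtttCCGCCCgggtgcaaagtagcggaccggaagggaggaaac
Pot1a: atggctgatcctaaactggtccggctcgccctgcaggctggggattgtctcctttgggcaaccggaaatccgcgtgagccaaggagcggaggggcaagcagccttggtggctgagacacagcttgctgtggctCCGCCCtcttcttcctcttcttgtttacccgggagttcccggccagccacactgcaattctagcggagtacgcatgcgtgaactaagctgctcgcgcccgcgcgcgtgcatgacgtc
Pot1b: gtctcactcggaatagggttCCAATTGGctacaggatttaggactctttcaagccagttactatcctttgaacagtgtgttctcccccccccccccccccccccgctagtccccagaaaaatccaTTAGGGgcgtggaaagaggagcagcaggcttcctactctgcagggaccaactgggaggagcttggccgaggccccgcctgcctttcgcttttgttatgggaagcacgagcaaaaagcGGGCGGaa
Tert: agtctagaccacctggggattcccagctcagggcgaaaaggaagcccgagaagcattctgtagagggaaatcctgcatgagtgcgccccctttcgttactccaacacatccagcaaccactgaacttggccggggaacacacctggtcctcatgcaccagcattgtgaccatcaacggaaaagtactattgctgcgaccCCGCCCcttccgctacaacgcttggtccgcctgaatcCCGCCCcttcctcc

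RefSeq promoters were found for 9 of the 10 genes, in 11 windows, with no entry for Terf1. The GC box was present for Rtel1, Pot1a, Pot1b and Tert, and in 32.7% of 32851 promoters of the same length. In the Tert window it began 51 and 14 bases before the start, both on the opposite strand. The telomere repeat itself was found in the Pot1b window, where it begins 125 bases before the start, and in 9.32% of all promoters. CCAAT was present for Acd, Pot1b and Terf2, and in 33.8% of all promoters, and the 2 overlapping matches in Pot1b form 1 palindromic stretch. Neither the STAT motif TTCCNGGAA, which both cytokines' signalling effector Stat3 is known to bind, nor the E-box CACGTG bound by Myc was found in any member window, and these motifs were present in 0.913% and 6.02% of all promoters. A match describes letters only, and the GC content of the member windows, 46.8% to 61.6%, spans the median of 52.4% over all promoters.

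Levels of the 10 genes differed widely and took another order without cytokine. In -LIF-ESCs Dkc1 and Terf1 were highest, at a mean of 89.1 ± 1.42 and 87.2 ± 7.31 TPM (SD, n = 2), and their libraries overlapped. Tinf2, Terf2, Acd, Terf2ip, Pot1a, Rtel1 and Tert followed, each with libraries separate from the next, down to Pot1b at 3.98 ± 0.0209 TPM. LIF-ESCs and OSM-ESCs had one shared order, Dkc1, Tinf2, Terf1, Rtel1, Terf2, Acd, Pot1a, Pot1b, Terf2ip and Tert, and the only neighbours whose libraries overlapped were Terf2 and Acd in OSM-ESCs. Rtel1 thus stood above Terf2 with either cytokine and below Pot1a without. The places of Tinf2 and Acd in these orders carry the limit of the exon overlaps given below, and that of Pot1b the limit of its uncertain exon length. By rank among all genes tested, Terf1 lay at the 90.8 to 91.8 percentile in the control, 75.6 to 77.1 with LIF and 73.2 to 74.2 with OSM, whereas Rtel1 lay at 49.1 to 50.2, 70.8 to 71.0 and 69.3 to 70.2.

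**Figure D1:**
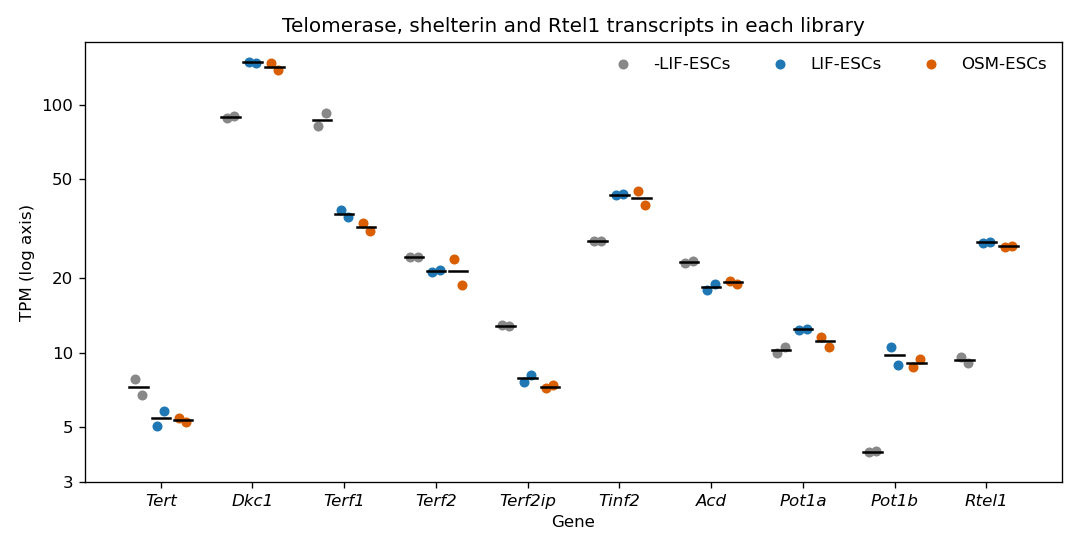
TPM of each gene (log axis) in each library, with points for libraries, bars for the mean of the 2 replicates, and grey, blue and orange for -LIF-ESCs, LIF-ESCs and OSM-ESCs. Terf1 falls from 82.0 and 92.4 TPM in -LIF-ESCs to between 31.0 and 37.7 in the other libraries, and Rtel1 rises from 9.11 and 9.59 to between 26.7 and 28.0.

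With LIF, 5 members rose and 4 fell relative to the control at the threshold of 0.05 on the adjusted p (limma, Benjamini-Hochberg over all genes tested), against 42.2% of all genes higher and 25.9% lower. With OSM, 4 rose and 4 fell, against 42.9% and 25.4% of all genes. Both comparisons use the same -LIF-ESC libraries and are therefore not independent of each other. With a log2 fold change of at least 1 required as well, Rtel1 and Pot1b were called higher and Terf1 lower in each, against 13.3% of genes called higher and 8.09% lower for LIF and 14.2% and 7.86% for OSM. Libraries of the groups did not overlap for any of the 10 genes in either comparison, which also held for 84.2% and 83.9% of all genes. No difference from these background shares is claimed for the 10 genes.

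The median log2 fold change of all genes was 0.165 for LIF and 0.182 for OSM, while the member medians were 0.03 and -0.05. When libraries were rescaled so that the median gene did not move, the medians of all genes became 0.002 and 0.005, and 4 members were higher and 5 lower in both comparisons. The share of higher among all genes past the threshold fell with it, from 61.9% to 50.1% for LIF and from 62.8% to 50.1% for OSM. With this scaling Terf2 passed the adjusted p in both comparisons, Pot1a no longer passed for LIF, and Pot1b no longer reached the fold threshold, as given beside their values. P-values rest on the spread between 2 libraries per group, which the study calls biological replicates and the labels do not tie to separate cultures, and an exact permutation test of 2 against 2 can give no p below 1 in 3.

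Tert (ENSMUSG00000021611.9), the telomerase reverse transcriptase, lies at chr13:73626911-73649843 on the plus strand of GRCm38. It was measured at 7.80 and 6.73 TPM in the control, at 5.04 and 5.82 TPM with LIF and at 5.46 and 5.25 TPM with OSM. Both control libraries were above all 4 cytokine libraries, while LIF-ESCs and OSM-ESCs overlapped. The mean was 0.748 times that of the control in LIF-ESCs (log2 fold change on log2(TPM + 1) -0.36 ± 0.1 SE, adjusted p = 0.0267) and 0.737 times in OSM-ESCs (-0.38, adjusted p = 0.0231). After rescaling the log2 fold changes were -0.53 (adjusted p = 0.00666) for LIF and -0.55 (adjusted p = 0.00553) for OSM. With limma's voom on recovered reads they were -0.57 (adjusted p = 7.8e-05) and -0.58 (adjusted p = 2.93e-05). The Tert values rest on 271 to 506 reads per library, and the error from counting alone was 0.0777 on the log2 scale for LIF. The recovered value of -LIF-ESC replicate 2, 358.68 reads, was not whole, so that count is approximate. The call in the main fit hung on single libraries. Without replicate 1 of -LIF-ESCs the log2 fold changes were -0.27 (adjusted p = 0.126) and -0.28 (adjusted p = 0.111), and without replicate 1 of LIF-ESCs the LIF value was -0.27 (adjusted p = 0.12). Leaving out OSM-ESC replicate 1 or 2 gave adjusted p-values of 0.0505 and 0.0506 for LIF and 0.0708 and 0.0945 for OSM.

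Dkc1 moved the other way. This pseudouridine synthase, part of telomerase and of the box H/ACA particles that modify ribosomal RNA, lies at chrX:75095854-75109777 on the plus strand. Its levels were 88.1 and 90.1 TPM in the control, 149 and 148 with LIF, and 147 and 138 with OSM. The control libraries were thus lowest, with a clear gap to the cytokine libraries. The mean was 1.67-fold higher with LIF (log2 fold change 0.73 ± 0.04 SE, adjusted p = 6.54e-05) and 1.59-fold higher with OSM (0.67, adjusted p = 8.68e-05). Within libraries the ratio of Dkc1 to Tert TPM was 11.3 and 13.4 in the control, 29.6 and 25.4 with LIF, and 26.8 and 26.2 with OSM. This ratio does not depend on the scaling of the library, and its groups with and without cytokine did not overlap.

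Among the double-strand binders of shelterin, Terf1 (chr1:15805646-15844052, plus strand) had the largest decrease of the 10 genes. It was measured at 82.0 and 92.4 TPM in the control, at 37.7 and 35.1 with LIF and at 33.4 and 31.0 with OSM. The 3 groups did not overlap. The control mean was 2.40 times that of LIF-ESCs (log2 fold change -1.24 ± 0.08 SE, adjusted p = 8.68e-05) and 2.71 times that of OSM-ESCs (-1.41, adjusted p = 5.48e-05). Across all 15 alternative settings the log2 fold change stayed between -1.42 and -1.15 for LIF and between -1.61 and -1.32 for OSM.

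Terf2, the paralogue of Terf1 at chr8:107069400-107096547 on the minus strand, did not pass the test in either comparison. Its TPM was 24.3 and 24.4 in the control, 21.1 and 21.6 with LIF, and 23.8 and 18.8 with OSM. The control libraries were highest, and the OSM-ESC libraries enclosed those of LIF-ESCs. The log2 fold changes were -0.18 (adjusted p = 0.19) and -0.20 (adjusted p = 0.166), and both passed after rescaling, at -0.37 (adjusted p = 0.0203) and -0.39 (adjusted p = 0.0162). The spread of the OSM-ESC pair entered both tests: without OSM-ESC replicate 1 the adjusted p-values were 0.0229 and 0.00724, and without replicate 2 they were 0.022 and 0.627. The OSM value itself moved from -0.20 to -0.36 without replicate 1 and to -0.03 without replicate 2. In a fit of LIF-ESCs and -LIF-ESCs alone the adjusted p was 0.0218. Tested as recovered reads with limma's voom, Terf2 also passed, at -0.33 (adjusted p = 0.000532) and -0.35 (adjusted p = 0.000174).

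Terf2ip, the Terf2 partner Rap1 (chr8:112011398-112020528, plus strand), was lower with either cytokine. The TPM values were 12.9 and 12.8 in the control, 7.63 and 8.12 with LIF, and 7.19 and 7.38 with OSM. All 3 groups were separate, with the control highest. Its mean was 0.614 times the control with LIF (log2 fold change -0.64, adjusted p = 0.000479) and 0.569 times with OSM (-0.74, adjusted p = 0.000275).

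The bridging and tethering subunits moved in opposite directions. Tinf2 (chr14:55674689-55681820, minus strand) was at 28.3 TPM in both control libraries, at 43.3 and 43.5 with LIF, and at 44.8 and 39.3 with OSM. All cytokine libraries were above the control, and the OSM-ESC pair enclosed the LIF-ESC pair. The mean was 1.53-fold higher with LIF (log2 fold change 0.60, adjusted p = 0.000758) and 1.48-fold higher with OSM (0.55, adjusted p = 0.00105).

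Acd (chr8:105695860-105701102, minus strand), which recruits telomerase and carries the Pot1 proteins, was at 22.9 and 23.5 TPM in the control, 17.9 and 18.9 with LIF, and 19.4 and 18.9 with OSM. The control was highest, and the closest LIF-ESC and OSM-ESC libraries were at 18.93 and 18.95 TPM. Acd fell to 0.794 times the control with LIF (log2 fold change -0.32, adjusted p = 0.0032) and to 0.826 times with OSM (-0.26, adjusted p = 0.00662). Exons of Tinf2 share 1540 bases (31.2% of its exon length) with Gmpr2 on the other strand, and those of Acd share 1208 bases (33.3%) with Carmil2. The strand setting of the counting is not given in the sources used here, so reads in these stretches cannot be told apart. Gmpr2 had log2 fold changes of 0.33 and 0.22 for LIF and OSM and Carmil2 of -0.73 and -0.69, each with the sign of its partner. Shorter antisense overlaps of 108 bases with Gm6793 for Terf2ip and of 45 bases with Mpp1 for Dkc1 took 2.18% and 1.09% of exon length.

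The Pot1 paralogues had unequal log2 fold changes, a difference that was not tested itself. Pot1b, the form known for restraining trimming of the C-rich strand at chromosome ends, lies at chr17:55651951-55712628 on the minus strand. Its values were 3.96 and 3.99 TPM in the control, 10.5 and 8.93 with LIF, and 8.71 and 9.40 with OSM. The control was lowest by a wide margin, and the cytokine groups overlapped. The mean was 2.45-fold higher with LIF (log2 fold change 1.11 ± 0.1 SE, adjusted p = 0.000292) and 2.28-fold higher with OSM (1.01, adjusted p = 0.0004). After rescaling the log2 fold changes were 0.94 (adjusted p = 0.000662) and 0.84 (adjusted p = 0.001), which passed the test but not the fold threshold. Single libraries also decided that threshold: the log2 fold change was 0.997 for LIF without LIF-ESC replicate 1 and 0.96 for OSM without OSM-ESC replicate 2. All these values are on log2(TPM + 1), where the added 1 TPM shrinks fold changes at low levels. At a pseudocount of 0.1, with all libraries, the log2 fold changes were 1.27 for LIF and 1.17 for OSM. Its TPM did not give whole reads with the exon length used, so its counts, about 196 to 601 reads per library, are approximate.

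Pot1a, the form that represses the DNA damage response at telomeres, lies at chr6:25743737-25809246 on the minus strand. It was at 9.97 and 10.47 TPM in the control, at 12.33 and 12.39 with LIF and at 11.61 and 10.54 with OSM. The LIF-ESC libraries were highest, and the lower OSM-ESC library lay just above the higher control library. Only the LIF difference passed (1.21-fold, log2 fold change 0.25, adjusted p = 0.0223, against 0.10 and 0.232 for OSM), and the difference between the cytokines did not (-0.15, adjusted p = 0.4). That call was lost after rescaling (0.08, adjusted p = 0.31), with voom (0.14, adjusted p = 0.0537) and without any 1 of the 4 libraries compared (adjusted p between 0.0542 and 0.1). The value for OSM changed sign after rescaling (-0.08, adjusted p = 0.28). Within libraries the Pot1a to Pot1b ratio was 2.52 and 2.62 in the control, 1.17 and 1.39 with LIF, and 1.33 and 1.12 with OSM. By these TPM values Pot1a was the more abundant transcript in every library, with a smaller excess with either cytokine. The exon length behind the Pot1b TPM is uncertain, since no whole reads were recovered, so the order of the pair is not secure.

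Rtel1, a helicase that unwinds the telomeric loop and aids replication of chromosome ends, showed the largest increase of the 10 genes. The gene lies at chr2:181319739-181356616 on the plus strand. Its levels were 9.59 and 9.11 TPM in the control, 27.8 and 28.0 with LIF, and 26.7 and 26.9 with OSM. The 3 groups were separate, with a narrow gap between the cytokine groups. The mean was 2.99-fold higher with LIF (log2 fold change 1.48 ± 0.05 SE, adjusted p = 1.36e-05) and 2.87-fold higher with OSM (1.43, adjusted p = 1.47e-05). The log2 fold change stayed between 1.31 and 1.57 and between 1.24 and 1.51 under the 15 alternatives.

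**Figure D2:**
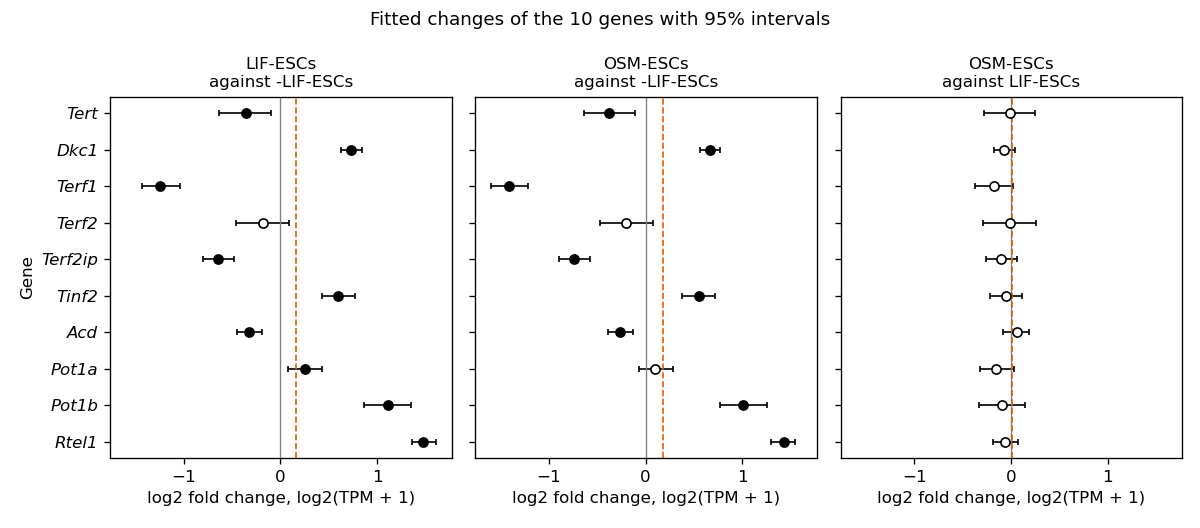
Log2 fold changes on log2(TPM + 1) of each gene with 95% intervals, in 1 panel per comparison, filled where the adjusted p is under 0.05, with the median of all genes tested as a dashed line. Rtel1 (1.48 and 1.43) and Terf1 (-1.24 and -1.41) mark the extremes against -LIF-ESCs, and every symbol in the panel of OSM-ESCs against LIF-ESCs is open.

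The makeup of the shelterin transcripts shifted with these changes. The TPM of the 7 subunits summed to 184 and 196 in the control, 150.0 and 149 with LIF, and 149 and 135 with OSM. Without Terf1 the sums were 102 and 103, 113 and 113, and 115 and 104. At the listed scaling the control was lowest once Terf1 was set aside, with 103 against 104 TPM at the closest. Such sums depend on the scaling of the libraries and were not recomputed after rescaling, so this order is not secure. Terf1 made up 44.5% and 47.2% of the sum in the control, 25.0% and 23.6% with LIF, and 22.4% and 22.9% with OSM. Tinf2 took the first place with either cytokine, at 28.8% and 29.3% with LIF and 30.1% and 29.0% with OSM against 15.4% and 14.4% in the control. These shares, and this first place, may include reads of Gmpr2, with which Tinf2 shares 31.2% of its exon length. Pot1b went from 2.15% and 2.04% to 7.01% and 6.01% with LIF and 5.85% and 6.95% with OSM. The Terf1 to Terf2 ratio was 3.38 and 3.78 in the control, 1.79 and 1.62 with LIF, and 1.40 and 1.65 with OSM. Ratios of transcripts within a library are a description of RNA, with no test, and do not give the stoichiometry of the proteins.

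**Figure D3:**
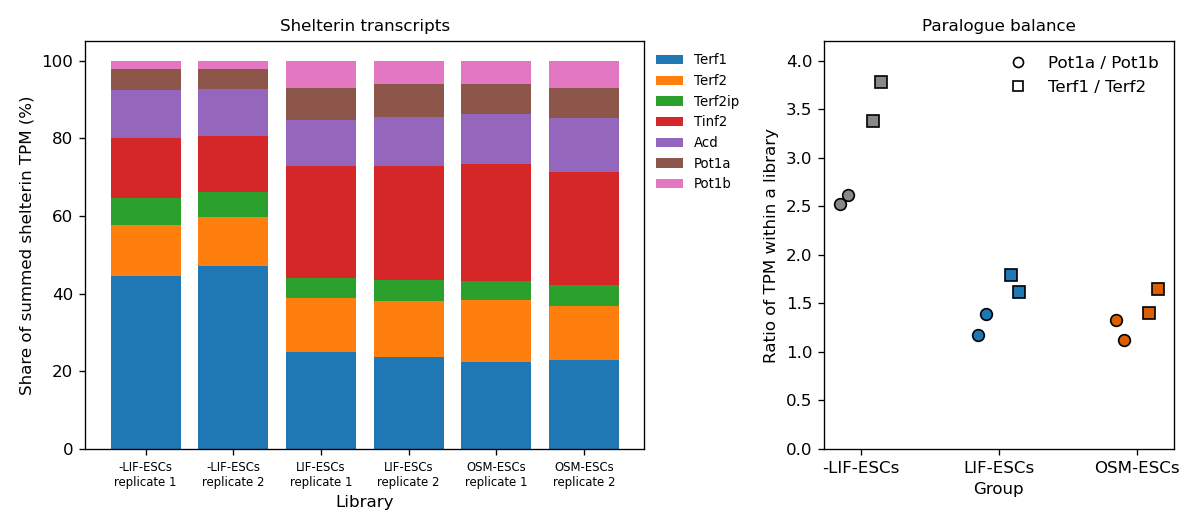
Left, share of each subunit in the summed shelterin TPM (%) of each library. Right, Pot1a to Pot1b (circles) and Terf1 to Terf2 (squares) TPM ratios within each library by group, with the control above the cytokine groups for both, at 2.52 and 2.62 and at 3.38 and 3.78.

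When the cytokine groups were compared with each other, none of the 10 genes passed an adjusted p of 0.05 in limma, and none had an unadjusted p under 0.05, against 0.593% and 15.3% of all genes. Tested as recovered reads with voom, again 0 members passed, a count for which no share over all genes is given here. The member log2 fold changes ran from -0.17 to 0.06 with a median of -0.06, against 0.008 over all genes, and 9 of them had a negative sign. Libraries did not overlap for 6 members, against 47.1% of all genes. Terf1 came nearest, with a log2 fold change of -0.17 (95% interval -0.37 to 0.02, adjusted p = 0.375). For Tert the interval was -0.28 to 0.25 around -0.01, for Pot1b -0.33 to 0.15 around -0.09, and for Terf2 -0.29 to 0.26 around -0.01. Rtel1, at -0.06, had an interval of -0.18 to 0.07, and Dkc1, at -0.07, of -0.17 to 0.04. The intervals of all 10 genes lay between -0.37 and 0.26, so differences up to that size remain possible and a missed threshold does not show that the cytokines acted alike. The fibroblast markers differed in this comparison, where 6 of 13 tested were higher in OSM-ESCs and none lower.

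Other telomere genes, grouped by function, are given here by their counts. Of 68 such genes tested, 38 were higher and 16 lower with LIF than in the control, and 36 and 16 with OSM, with median log2 fold changes of 0.27 and 0.23. The background shares given above, 42.2% higher and 25.9% lower for LIF and 42.9% and 25.4% for OSM, apply to these and to the list counts that follow, and no difference from them was tested. After rescaling the splits were 30 and 23 for LIF and 26 and 24 for OSM. Of the 68, 0 passed in limma when the cytokine groups were compared with each other, against 0.593% of all genes. In that comparison 9 of the 68 had an unadjusted p under 0.05, against 15.3% of all genes. There voom gave 1 to 3 genes past the threshold in each of 5 lists, for which no share over all genes is given here. The limma shares do not apply to these voom counts, and nothing is read from them.

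Of 16 genes for assembly of the telomerase particle, 7 were higher and 4 lower in each comparison with -LIF-ESCs (median 0.08 in both, and 5 higher with 6 and 7 lower after rescaling). The partners of Dkc1 in the H/ACA particle did not share a direction. Nhp2 fell from 603 and 583 TPM in the control to 322 and 331 with LIF and 351 and 341 with OSM (log2 fold changes -0.86 and -0.78, adjusted p = 2.44e-05 and 3.12e-05). Nop10 fell by 0.25 and 0.29 on the log2 scale, Gar1 rose by 0.50 in both comparisons, and the assembly factor Naf1 had values of 0.05 and 0.07 that did not pass (adjusted p = 0.622 and 0.458). Nat10, an RNA acetyltransferase found with telomerase, rose from 24.3 and 23.9 TPM to 58.6 and 59.4 and to 61.3 and 58.0. Terc, the telomerase RNA, lacks the long poly-A tail that these libraries select for. It was listed at 0 in both -LIF-ESC libraries and had 10 and 3 reads with LIF and 5 and 5 with OSM, so no fold change is given, although it counts among the 7 higher genes.

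Among 7 genes of the CST complex and its polymerase α-primase, which fill in the C-rich strand, 3 were higher and 3 lower in each comparison (medians -0.22 and -0.10, and 2 higher with 4 lower after rescaling). The polymerase subunit Pola1 rose from 14.5 and 15.6 TPM to 45.0 and 44.3 with LIF and 42.8 and 38.0 with OSM (log2 fold changes 1.51 and 1.36). Pola2 rose by 0.42 and 0.49, and the primase subunit Prim2 fell by 0.38 and 0.36 on the log2 scale. Of the CST subunits proper, Ctc1 fell from 63.5 and 61.5 TPM to 41.4 and 40.1 and to 37.2 and 36.1 (-0.60 and -0.75), and Stn1 fell by 0.32 and 0.35 on that scale. Ten1, at -0.22 and -0.10, did not pass (adjusted p = 0.0545 and 0.342).

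Of 21 genes for end processing and replication of telomeres, 12 were higher and 8 lower with LIF and 10 and 7 with OSM (medians 0.28 and 0.15, and 9 with 9 and 5 with 9 after rescaling). Rif1, which acts in replication timing and repair choice, rose from 51.6 and 52.7 TPM to 157 and 150.0 with LIF and 154 and 141 with OSM (log2 fold changes 1.54 and 1.48). The nuclease subunit Mus81 rose by 0.93 and 0.92. Rad50, of the MRN complex, fell from 76.3 and 80.4 TPM to 40.6 and 39.3 and to 37.8 and 35.2 (-0.96 and -1.08), and the helicase Wrn from 13.1 and 12.4 TPM to 6.17 and 6.52 and to 5.42 and 5.73 (-0.91 and -1.07).

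The 15 telomeric chromatin genes had 9 higher and none lower with LIF and 9 higher and 1 lower with OSM (medians 0.31 and 0.24, and 7 with 2 in both after rescaling). Heterochromatin protein gene Cbx5 rose by 1.04 and 1.03 on the log2 scale, the chromatin remodeller Atrx by 0.91 and 1.04 and the nuclear receptor Nr2c2 by 0.95 and 0.94. The smallest rises past the threshold were those of the histone methyltransferase gene Suv39h2 (0.27 and 0.19) and of Smchd1 (0.31 and 0.24). After rescaling Suv39h2 stood at 0.08 and -0.01 and Smchd1 at 0.13 and 0.05, none of which passed. H3f3b, a gene for histone H3.3, had log2 fold changes of -0.04 (adjusted p = 0.308) and -0.09 (adjusted p = 0.0384). After rescaling both H3f3b values passed, at -0.23 (adjusted p = 0.00112) and -0.29 (adjusted p = 0.000442).

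Of 9 known transcriptional regulators of Tert tested, 7 were higher and 1 lower in each comparison (medians 0.57 and 0.48, and 7 with 2 after rescaling), against 42.2% and 42.9% of all genes higher. The list holds activators and repressors, and members of both kinds were higher. Klf4, an activator of Tert in mESCs, rose from 51.2 and 49.7 TPM to 361 and 357 with LIF and 325 and 326 with OSM (log2 fold changes 2.81 and 2.67). Myc rose from 10.6 and 9.61 TPM to 34.1 and 30.9 and to 39.8 and 39.4 (1.59 and 1.87), and Mycn from 78.9 and 80.5 TPM to 264 and 257 and to 283 and 281 (1.70 and 1.81). Max, the partner of Myc and of Mxd1, rose by 0.41 and 0.43. Men1, described as a repressor of TERT, fell by 0.30 and 0.27 on the log2 scale, whereas Mxd1, a repressor that competes with Myc and is named here after its values were seen, rose by 0.96 and 0.93 (adjusted p = 0.00269 and 0.00302). Proliferation genes, 18 in all, split into 8 higher and 7 lower with LIF and 6 and 7 with OSM, and 5 with 10 and 5 with 12 after rescaling.

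**Figure D4:**
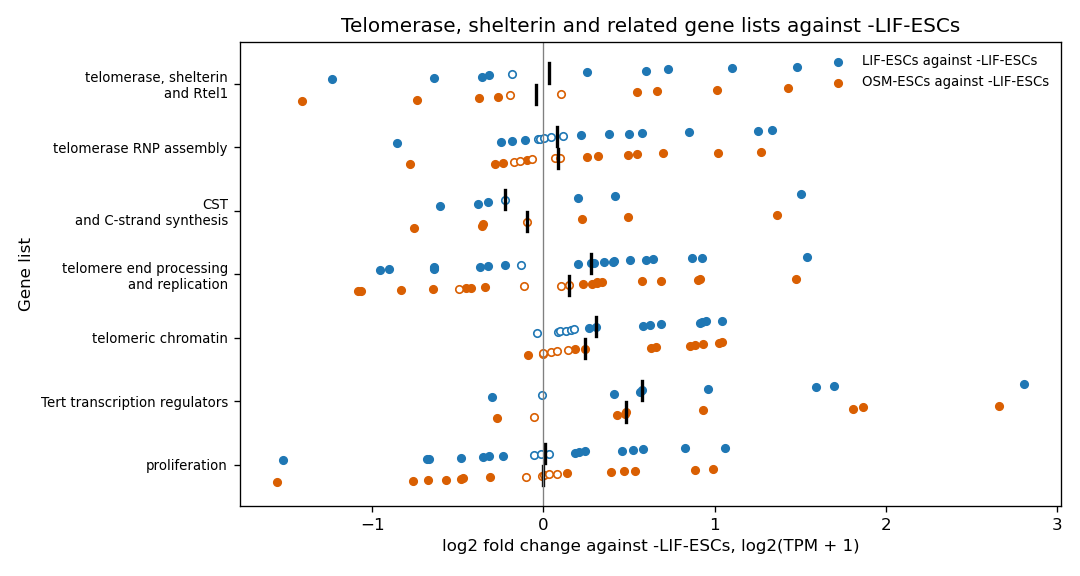
Log2 fold changes against -LIF-ESCs, on log2(TPM + 1), of each tested gene by list, blue for LIF-ESCs and orange for OSM-ESCs, filled where the adjusted p is under 0.05, with bars for list medians. Member medians lie at 0.03 and -0.05, and the highest single gene is Klf4 in the list of Tert regulators, at 2.81 and 2.67.

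The 8 genes of the 2-cell state known for telomere lengthening independent of telomerase, Zscan4a to Zscan4f, Tcstv1 and Tcstv3, were all below the level required for testing. Reads of the 6 Zscan4 genes, near-identical copies whose reads may be split or dropped in counting, summed to 72 and 54 in the control, 21 and 18 with LIF, and 10 and 10 with OSM. The control libraries were thus highest, at 2.98 and 2.75 summed TPM, and OSM-ESCs lowest, at 0.466 and 0.382. The Tcstv pair had 8 and 3 reads, 0 and 2, and 0 and 1.

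The genes with the pattern most like Tert over the 6 libraries, out of 13496 compared, were Gls2, Lsm1 and Prdx4, with root mean square differences of 0.0292, 0.0371 and 0.044 on centred log2(TPM + 1). Those most like Terf1 were Pecr, Sgo2b and Myo1e, at 0.0336, 0.0369 and 0.049. Sgo2b was near the floor, at a mean of 2.45 TPM in the control, 0.412 with LIF and 0.248 with OSM. The added 1 TPM shrinks fold changes at such levels, so its likeness to Terf1 holds on this scale only. Pecr went from 61.6 and 71.0 TPM in the control to 29.3 and 27.2 with LIF and 24.2 and 23.9 with OSM, and Gls2 from 13.3 and 12.3 to 9.02 and 10.2 and to 9.60 and 9.56. This likeness describes 6 libraries only.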

How the data were processed

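Poly-A RNA-seq libraries of mESCs were analysed, 2 each of -LIF-ESCs, LIF-ESCs and OSM-ESCs, grouped by their labels. The authors deposited 1 table of TPM values. Their notes name Trimmomatic, HISAT2, featureCounts and the mm10 build, while strandedness, annotation, the treatment of multi-mapping reads and the step to TPM are not given in the sources used here. Reads were recovered from deposited TPM and GENCODE M21 exon lengths: 99.4% of symbols matched once, and 95.4% of values were whole within 0.02 of a read. They give depth (20712941 to 28994417 reads per library) and counting error, which covers sampling of reads only. Replicates differed by more than sampling noise (chi-square per gene, averaged, 2.03 to 3.49 against 1).

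Log2(TPM + 1) was fitted with limma 3.58.1 in R 4.3.3 (lmFit, eBayes with a trend), where all 3 groups shared 1 estimate of the spread (3 residual degrees of freedom, or 5.3 after moderation), and p-values were Benjamini-Hochberg adjusted over 18556 genes. Pseudocounts, filters, scaling, trend, groups fitted, a replicate block, mitochondrial genes, each library left out, and voom on recovered reads were varied, 15 settings in all. Other tables used Python 3.11.15, pandas 2.3.3 and numpy 2.4.6.

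All members were named. Of each telomere list the 2 highest and 2 lowest genes past an adjusted p of 0.05 against -LIF-ESCs were named, as were Terc, Naf1, the H/ACA partners, CST genes and Rif1. Myc and Mycn fell under this rule. For Tert and Terf1 the 3 genes with the smallest root mean square difference over the 6 libraries were named. Members, lists and tests were chosen with earlier results of these data known. Motifs were searched in both strands of RefSeq promoters (GRCm38.p6), and loci are from GENCODE M21 (GRCm38).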

Additional observations from a re-analysis of the deposited data

How the results depend on the processing

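With 2 libraries per group, no call rests on more than the modelled spread. Member counts stayed within 1.5 times of the reported ones under all 15 alternatives: 7 to 10 past the threshold for LIF-ESCs and 7 to 9 for OSM-ESCs against -LIF-ESCs, 2 or 3 called with the fold threshold in each, and 0 between OSM-ESCs and LIF-ESCs. Dkc1, Terf1, Terf2ip, Tinf2, Acd, Pot1b and Rtel1 kept their direction and passed the adjusted p in both comparisons with -LIF-ESCs under all 15, whereas Pot1b missed the fold threshold after rescaling, for LIF without LIF-ESC replicate 1 (0.997) and for OSM without OSM-ESC replicate 2 (0.96). These Pot1b values are on log2(TPM + 1), and with all libraries its log2 fold changes were 1.27 and 1.17 at a pseudocount of 0.1. Pot1a in OSM-ESCs against -LIF-ESCs changed sign with rescaling (-0.08) and voom (-0.02). The losses for Tert and Pot1a and the gains for Terf2 stand in the report. In OSM-ESCs against LIF-ESCs no member passed under any alternative, and with libraries left out in turn the log2 fold change ran from -0.10 to 0.07 for Tert, -0.18 to 0.15 for Terf2, -0.14 to 0.04 for Tinf2 and -0.20 to 0.02 for Pot1b. At a pseudocount of 0.1 the log2 ratio of Pot1a to Pot1b in -LIF-ESCs was 1.34, against 1.17 at a pseudocount of 1. With no filter on low values, 4 and 5 of the 8 genes of the 2-cell state passed for LIF-ESCs and OSM-ESCs against -LIF-ESCs. No share over all genes is given for that fit, so nothing is read from these counts. Each of the 8 genes had at most 20 reads in any library, and the summed Zscan4 reads were highest in -LIF-ESCs. The causes were not tested. Deviations of same-numbered libraries had correlations of -0.043, -0.023 and 0.027. These cannot show whether such libraries shared a culture or preparation, and the labels do not say what the numbers mark. The replicate block in limma gave 9, 8 and 0 members past the threshold in the 3 comparisons, as without it, with an adjusted p for Tert of 0.0492 and 0.0437. Depth limits Tert, Pot1b, Terc and the Zscan4 genes most.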
